A study of Mus musculus with 12 samples.

Results

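The mRNA levels of 10 genes that mark the macrophages resident in the mouse heart were examined in cardiac tissues of cisplatin-treated and untreated mice with and without STING. The genes are Csf1r, C1qa, C1qb, C1qc, Adgre1, Mrc1, Cd163, Lyve1, Folr2 and Retnla. They were picked by symbol from the 55885 genes of the expression table, and all 10 were among the 13815 genes expressed highly enough to be tested. STING is an adaptor that passes the signal of DNA in the cytosol on to TBK1, and the study asked what its loss changes in the injury that cisplatin (CDDP) causes in the heart.

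RNA-seq was done on hearts of 12 male C57BL/6 mice (C57BL/6J in the methods), given there as 8 weeks old. The Saline group (n = 3) was wild type without cisplatin, and the CDDP group (n = 3) was wild type with cisplatin. The STING-/- group (n = 3) lacked STING throughout the body and had no cisplatin, and the STING-/-+CDDP group (n = 3) lacked STING and had cisplatin. Cisplatin, a platinum compound that crosslinks DNA, was given at 6 mg/kg into the peritoneum on days 1, 8 and 15, and the hearts were taken a week after the last injection. Mice without cisplatin are untreated in the labels and saline-injected in the methods. According to the methods the wild-type mice came from a vendor and the STING-/- mice from Jackson Lab, so that genotype and source of the mice cannot be told apart. Different animals carry the same heart number in different groups.

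Macrophages settle in the heart before birth and are kept up there by local division and, to a changing degree, by monocytes from the blood. They need the receptor CSF1R for survival, clear dying cells and debris, and lie among cardiomyocytes, fibroblasts and vessels. A self-renewing subset in the mouse heart is known by TIMD4, LYVE1 and FOLR2, while macrophages that descend from recruited monocytes are known by CCR2.

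Levels are given in TPM, an abundance unit in which reads are divided by gene length and every heart is scaled to the same sum. TPM keeps no read counts, so the depth of each heart is unknown. Every heart had the defining transcripts of cardiac muscle at high levels, and the summed TPM of 7 cardiac muscle genes lay between 25881 and 51335. The hearts differed in other tissue. The summed TPM of 4 atrial muscle genes, of which Nppa was the most abundant, was 310 in Saline heart 1, 38939 in Saline heart 2 and 339 in Saline heart 3. The 8 fat cell genes summed to 3.43, 93.1 and 1.09 TPM in the same hearts. Saline hearts 1 and 3 thus held little atrial and fat transcript, and Saline heart 2 much. The atrial sums of the CDDP hearts were 3793, 854 and 14622 TPM, those of the STING-/- hearts 2994, 12835 and 8861 TPM and those of the STING-/-+CDDP hearts 9025, 902 and 331 TPM. The fat sums, led by Cfd, were 10.5, 54.5 and 138 TPM with CDDP, 131, 172 and 54.9 TPM in STING-/- and 47.4, 64.8 and 52.0 TPM in STING-/-+CDDP hearts. Hearts of the same group differed in atrial transcript in every group, and in fat transcript least in the STING-/-+CDDP group. CDDP heart 1 stood apart in neutrophil transcripts, which summed to 1146 TPM over 11 genes and were led by S100a9, while the highest other heart, STING-/- heart 2, had 94.3 TPM. All 10 resident macrophage genes were lower in CDDP heart 1 than in the other CDDP hearts.

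In the Saline hearts the 3 chains of complement C1q were the most abundant of the 10 genes. C1qa, at 187 ± 26.7 TPM (SD, n = 3), did not separate from C1qb, at 169 ± 17.4 TPM, and C1qc followed without overlap at 117 ± 13.2 TPM. Folr2 came next with 48.8 ± 3.63 TPM, below every C1qc value. The order of the remaining genes, from Lyve1 at 42.1 ± 38.4 TPM to Mrc1 at 17.6 ± 2.98 TPM, was not resolved, since the neighbours overlapped. In the CDDP hearts Lyve1 (47.3 ± 11.9 TPM) stood beside C1qc (44.3 ± 14.6 TPM), and Folr2 had dropped to 9.68 ± 5.93 TPM, among the low genes.

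**Figure D1:**
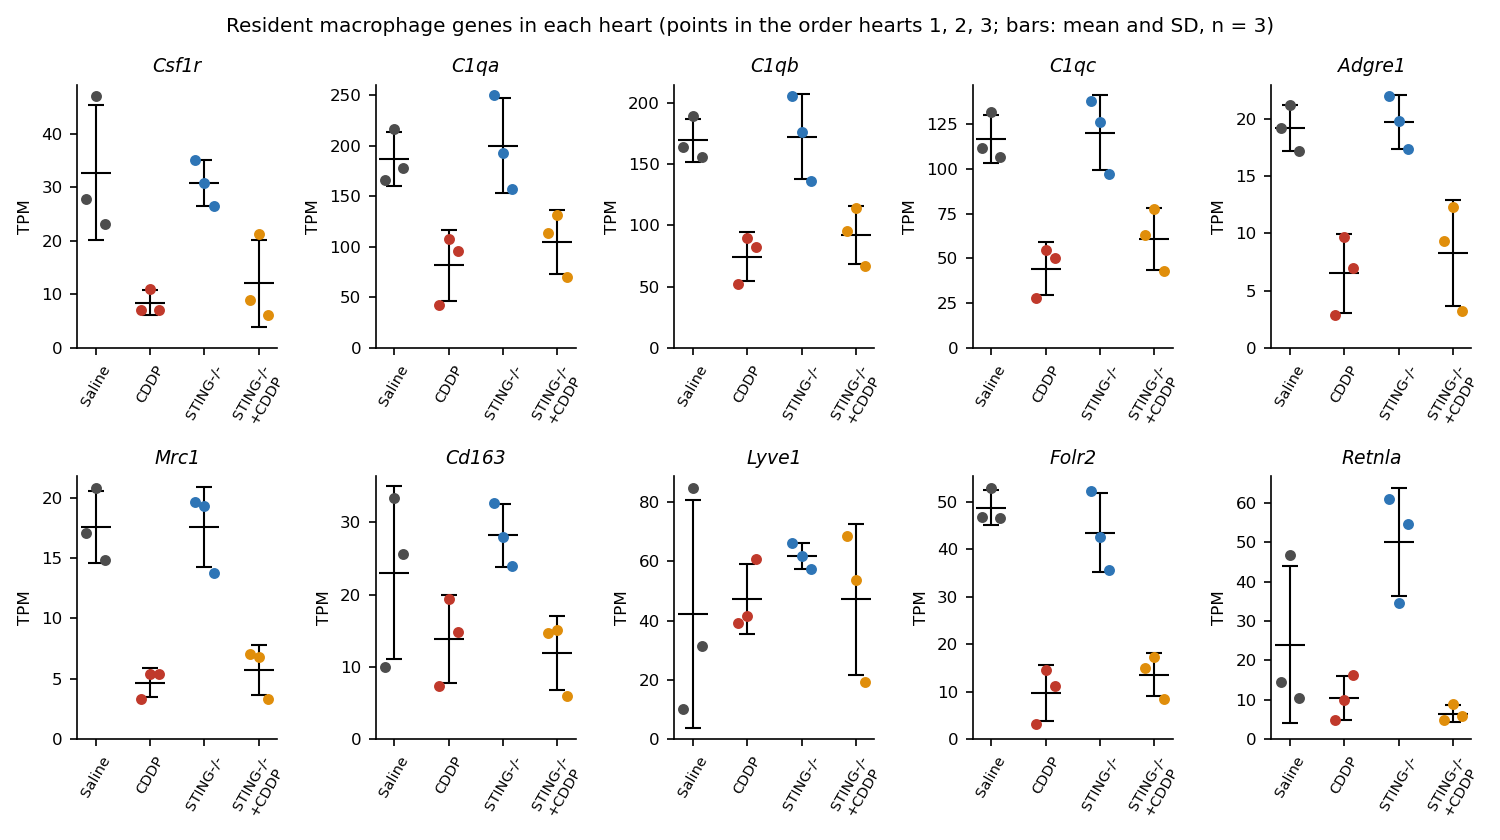
TPM of the 10 resident macrophage genes (y axis, from 0) in the 4 groups (x axis), with points for hearts 1, 2 and 3 from left to right and bars for the mean and SD. The CDDP hearts lie below all Saline hearts for 7 genes, and the exceptions are Cd163, Lyve1 and Retnla.

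Of the 10 genes, 7 fell with cisplatin in wild-type mice. Csf1r, C1qa, C1qb, C1qc, Adgre1, Mrc1 and Folr2 were lower in the CDDP than in the Saline group (adjusted p under the threshold of 0.05 by limma with Benjamini-Hochberg adjustment over all genes tested). Of all 13815 genes tested, 18.9% passed in this comparison and 10.4% were lower. For the same 7 genes each CDDP heart lay below each Saline heart, which held for 32.0% of all tested genes in either direction and for 17.1% towards lower levels. The median log2 fold change was -1.36 over the 10 genes and -0.0032 over all tested genes, on the log2(TPM + 1) scale, where the added 1 makes the change of low genes smaller. Summed over the 10 genes, the transcripts reached 680 ± 143 TPM in the Saline and 301 ± 97.3 TPM in CDDP hearts. In whole tissue, fewer macrophages and less RNA of these genes per macrophage cannot be told apart. Without CDDP heart 1, the heart rich in neutrophil transcripts, the median was -1.05 and 6 genes passed, Adgre1 being lost (adjusted p = 0.072). C1qa and Adgre1 were also lost when any of the Saline hearts was left out.

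The receptor CSF1R carries the survival signal of macrophages, and Csf1r lies on the plus strand of chr18:61100598-61132149 (GRCm38), where Hmgxb3 runs on the opposite strand. Csf1r was at 27.9, 47.1 and 23.2 TPM in Saline hearts and at 7.06, 11.1 and 7.08 TPM in CDDP hearts. The groups lay far apart, although Saline heart 2 stood well above the other Saline hearts. The log2 fold change was -1.81 (standard error 0.38, adjusted p = 0.00854 by limma), which is 3.50-fold lower.

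CSF1R has a pair of ligands. Csf1, the main ligand, was at 21.9, 26.6 and 12.5 TPM in the Saline and 29.97, 12.2 and 21.01 TPM in CDDP hearts, a log2 fold change of 0.02 with a 0.35 standard error and groups that overlapped throughout. Il34, the second ligand, was at 4.68, 4.91 and 4.75 TPM in the Saline and at 0.76, 1.21 and 1.76 TPM in CDDP hearts (log2 fold change -1.39 with standard error 0.18, adjusted p = 0.000935 by limma). In the STING-/-+CDDP hearts Il34 stood at 4.40, 5.43 and 5.56 TPM, close to the 5.76, 5.93 and 5.19 TPM of the STING-/- hearts. Il34 was thereby higher in the STING-/-+CDDP than in the CDDP group by 1.47 on the log2 scale (adjusted p = 0.0078). The interaction of cisplatin and genotype for Il34 was 1.27 (unadjusted p = 0.000307), which did not pass adjustment over all genes (adjusted p = 0.267). Csf1r itself stood at 8.91, 21.4 and 6.05 TPM in STING-/-+CDDP hearts.

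The genes listed for the CSF1 axis also held transcription factors. Maf, a factor of macrophages, was at a log2 fold change of -0.81 with cisplatin in wild-type mice (adjusted p = 0.0671 by limma), and Spi1, which encodes the myeloid factor PU.1, at -0.42 (adjusted p = 0.498). Spi1 was highest in CDDP heart 1, at 15.1 TPM, and 4.55 and 4.40 TPM in the other CDDP hearts.

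**Figure D2:**
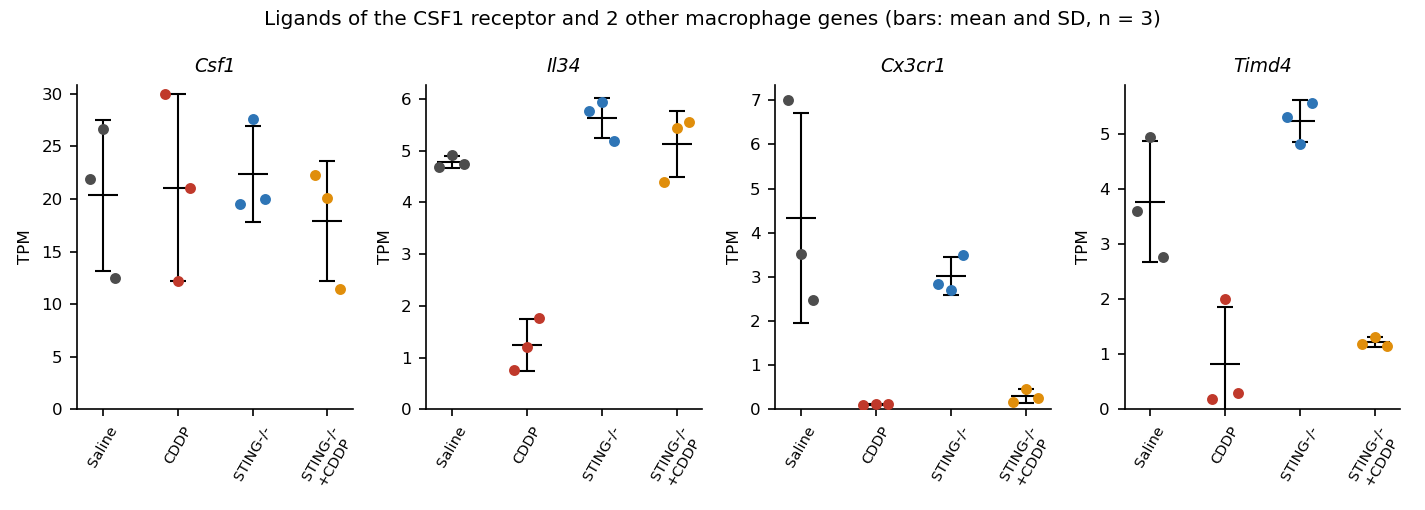
TPM (y axes, from 0) of the CSF1R ligands Csf1 and Il34 and of the macrophage genes Cx3cr1 and Timd4 in the 4 groups (x axis), with points for single hearts and bars for the mean and SD. Il34 is under 2 TPM in CDDP hearts alone, whereas Cx3cr1 and Timd4 are low in the CDDP and the STING-/-+CDDP hearts.

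C1q is the recognition molecule of the classical complement pathway, assembled from A, B and C chains, and tissue macrophages are its main source. The 3 genes stand side by side on the minus strand of chromosome 4 of GRCm38, C1qb at chr4:136880129-136886187, C1qc at chr4:136889804-136893065 and C1qa at chr4:136895917-136898803, within 18675 bases. C1qa was at 166, 217 and 178 TPM in the Saline and at 41.8, 108 and 95.6 TPM in CDDP hearts. C1qb was at 164, 189 and 156 TPM against 51.8, 89.3 and 82.2 TPM. C1qc was at 112, 132 and 107 TPM against 27.6, 54.9 and 50.4 TPM. For each chain the highest CDDP heart stayed below the lowest Saline heart, and CDDP heart 1 was the lowest of all.

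The log2 fold changes of the chains were close to each other. They were -1.29 for C1qa (standard error 0.34, adjusted p = 0.0222), -1.21 for C1qb (standard error 0.24, adjusted p = 0.00695) and -1.43 for C1qc (standard error 0.27, adjusted p = 0.00536, all by limma). The proportion of the chains was close in most hearts. Over the 12 hearts C1qa made up 40.0 ± 2.30% of the summed C1q TPM, C1qb 36.2 ± 2.21% and C1qc 23.8 ± 1.19%. CDDP heart 1 stood apart, with C1qa at 34.5% below C1qb at 42.7%, whereas C1qb made up 34.6 to 37.3% in every other heart and less than C1qa. C1qc made up 22.8, 21.8 and 22.1% in CDDP hearts and between 23.1 and 25.5% in each of the other 9 hearts, a difference noticed after the values had been seen and not tested.

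The promoters of C1qb and C1qc are shown because these genes moved together, with that of Mrc1, a receptor gene described next, beside them. Each stretch is the sequence before the start site from the RefSeq promoter table (GRCm38.p6), cut where the GENCODE or RefSeq transcript begins, on the strand of the gene and written 5′ to 3′. The coordinates are chr4:136886201-136886450 on the minus strand for C1qb, chr4:136893066-136893164 on the minus strand for C1qc and chr2:14229164-14229391 on the plus strand for Mrc1. Capitals mark the core motif of PU.1, GAGGAA on either strand (TTCCTC when read on the other).
C1qb: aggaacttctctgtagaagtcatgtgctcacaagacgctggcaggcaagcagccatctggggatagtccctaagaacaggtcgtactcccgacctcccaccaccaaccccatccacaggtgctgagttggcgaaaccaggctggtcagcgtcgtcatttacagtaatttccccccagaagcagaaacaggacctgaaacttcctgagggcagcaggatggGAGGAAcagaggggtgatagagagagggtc
C1qc: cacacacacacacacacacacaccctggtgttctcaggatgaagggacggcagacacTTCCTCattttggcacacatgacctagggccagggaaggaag
Mrc1: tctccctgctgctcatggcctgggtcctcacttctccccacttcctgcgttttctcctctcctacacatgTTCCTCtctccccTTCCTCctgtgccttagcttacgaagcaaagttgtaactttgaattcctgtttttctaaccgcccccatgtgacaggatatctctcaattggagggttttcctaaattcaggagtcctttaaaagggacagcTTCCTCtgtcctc
The motif lay 30 bases before the RefSeq start of C1qb, 193 bases before that of C1qc, and 180, 167 and 35 bases before that of Mrc1. Among 32851 promoters of the table, 23.3% held it within the 250 bases before the start, so that a match is common and describes the letters alone. The table held 7 promoters for 6 of the 10 genes, namely C1qb, C1qc, Mrc1, Cd163, Folr2 and Retnla, and 4 of the 7 held the motif. The AP-1 motif TGANTCA, where N is any base, was in 1 of 7, a promoter of Folr2 with the letters TGACTCA at 74 bases before the start, against 6.75% of all promoters.

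Adgre1 encodes the surface protein F4/80, the classical marker of mouse macrophages, and lies at chr17:57358691-57483527 on the plus strand. Adgre1 was found at 19.2, 21.2 and 17.2 TPM in Saline hearts and at 2.82, 9.70 and 6.96 TPM in CDDP hearts, a log2 fold change of -1.55 (standard error 0.41, adjusted p = 0.0243 by limma). The spread among the CDDP hearts, 3.46 TPM (SD), was wide for a mean of 6.49 TPM, but the highest of them was still well below the Saline hearts. Mrc1 encodes the mannose receptor CD206, an endocytic receptor of resident macrophages, and lies at chr2:14229392-14332057 on the plus strand with the microRNA gene Mir511 inside it. Mrc1 was at 17.1, 20.8 and 14.9 TPM in Saline hearts and at 3.35, 5.37 and 5.37 TPM in CDDP hearts. Its log2 fold change of -1.72 (standard error 0.26) had the lowest adjusted p of the 10 genes, 0.00189 by limma.

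Folr2, which encodes folate receptor beta, a marker of the self-renewing subset, showed the largest fall of the 10 genes in wild-type mice. It lies on the minus strand of chr7:101839988-101857194, where the antisense gene Gm10602 and the pseudogene Gm45319 overlap it. Folr2 was at 46.8, 52.9 and 46.5 TPM in Saline hearts, the tightest group of the gene, and at 3.11, 14.6 and 11.3 TPM in CDDP hearts. The CDDP mean was 19.9% of the Saline mean, and the log2 fold change was -2.43 (standard error 0.41, adjusted p = 0.00321 by limma). Of all tested genes, 0.29% fell further. Without CDDP heart 1 the log2 fold change was -1.84 and still passed (adjusted p = 0.00265).

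Lyve1, the hyaluronan receptor that marks the same subset and also lymphatic vessels, did not follow Folr2. Its gene lies at chr7:110850607-110863239 on the minus strand. Lyve1 was at 10.1, 84.7 and 31.5 TPM in Saline hearts, a span that covered all 3 CDDP hearts at 39.2, 41.7 and 60.9 TPM. The log2 fold change was 0.59 with a 95% confidence interval from -0.75 to 1.94 (adjusted p = 0.54 by limma). The estimate rested on single Saline hearts, being -0.16 without Saline heart 1 and 1.32 without Saline heart 2, and neither value passed. Lyve1 TPM per Folr2 TPM was 0.216, 1.60 and 0.677 in Saline hearts and 12.6, 2.85 and 5.38 in CDDP hearts. In the STING-/- hearts the ratio was 1.27, 1.45 and 1.60, and in STING-/-+CDDP hearts 4.57, 3.11 and 2.24. Every heart with cisplatin had a higher ratio than every heart without it, a description chosen after the values were seen. The split was not particular to Lyve1. C1qa per Folr2 was at least 7.35 with and at most 4.78 without cisplatin. Cd163 per Folr2 was at least 0.704 with and at most 0.671 without it.

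The level of Lyve1 was also set against the genes of other tissue in the samples. Over 12 hearts Lyve1 correlated with the mean of the 4 atrial muscle genes, with Pearson's r = 0.833 (permutation p = 0.00076, adjusted p = 0.0304 over 40 relations of the 10 genes with 4 lists) and Spearman's rho = 0.832 (permutation p = 0.00153, adjusted p = 0.0612). Without the 2 hearts farthest from the median r was 0.804, and over deviations from the group means it was 0.795. With the fat genes r was 0.636 and rho 0.699, and with the mesothelial genes r was 0.57 and rho 0.783, none of which passed adjustment (adjusted permutation p from 0.072 to 0.22). Fitted with the atrial mean as a covariate, the log2 fold change of Lyve1 with cisplatin was -0.02 (adjusted p = 0.981), and that of Folr2 stayed at -2.46 (adjusted p = 0.00584). Whether Lyve1 transcripts came from macrophages or from lymphatic vessels was not tested. Of 7 lymphatic endothelial genes, Reln rose and Ccl21a fell in the CDDP group, with a median of 0.40. Prox1, the defining lymphatic factor, was at 11.3, 7.56 and 7.01 TPM in the Saline and 3.71, 9.05 and 7.52 TPM in CDDP hearts. Ccl21a has near-identical copies in the mouse genome, so its value is uncertain.

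**Figure D3:**
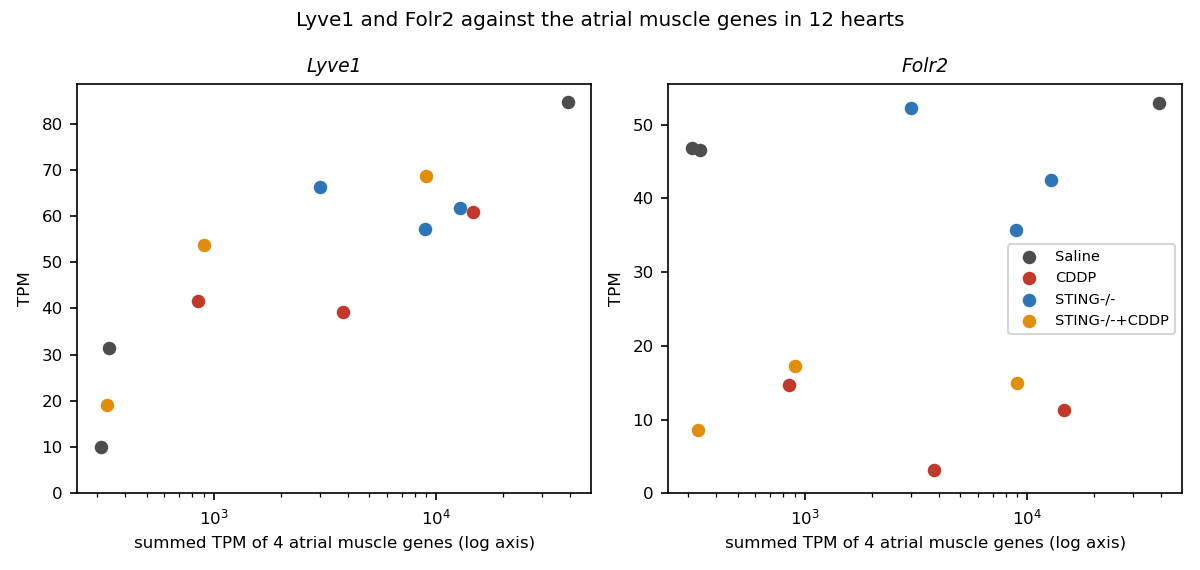
TPM of Lyve1 and of Folr2 (y axes, from 0) against the summed TPM of 4 atrial muscle genes (x axis, log scale) in the 12 hearts, coloured by group. Lyve1 is low in the hearts with few atrial transcripts, whereas Folr2 separates the hearts with and without cisplatin at every atrial level.

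Cd163 encodes the scavenger receptor for complexes of hemoglobin and haptoglobin and lies at chr6:124304656-124330527 on the plus strand. It was at 9.94, 33.4 and 25.7 TPM in Saline hearts and at 7.41, 19.4 and 14.8 TPM in CDDP hearts. The lowest heart of each group was heart 1, and the groups overlapped through Saline heart 1. The log2 fold change was -0.63 (95% confidence interval -1.62 to 0.37, adjusted p = 0.363 by limma). Without Saline heart 1 it was -1.12, without passing (adjusted p = 0.113). Transcripts of red blood cells, the source of the hemoglobin that CD163 takes up, fell for all 5 genes listed, from 6815, 4146 and 9317 TPM in sum in Saline hearts to 1271, 141 and 42.0 TPM in CDDP hearts. They summed to 1266, 1465 and 264 TPM in the STING-/- hearts, where Cd163 was at 32.7, 27.9 and 24.0 TPM. Whether the level of Cd163 is related to these transcripts was not tested.

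Retnla encodes RELM alpha, a secreted protein that macrophages make in response to IL-4 and IL-13 through STAT6, and lies at chr16:48842551-48844461 on the plus strand. The stretch chr16:48842359-48842550 before it (plus strand, RefSeq promoter table, GRCm38.p6, 5′ to 3′) is shown for the STAT6 motif TTCNNNNGAA, in capitals, where N is any base. The motif reads the same on either strand.
Retnla: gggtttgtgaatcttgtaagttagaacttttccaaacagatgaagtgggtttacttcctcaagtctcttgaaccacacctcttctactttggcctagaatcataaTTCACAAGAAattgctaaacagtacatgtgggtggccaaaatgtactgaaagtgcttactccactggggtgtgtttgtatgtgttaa
The motif stood 145 bases before the RefSeq start, and 5.85% of the 32851 promoters held it within 250 bases. The PU.1 core also occurred there, 196 bases before the start, and is left in lower case.

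In wild-type mice the difference in Retnla did not pass the test. Retnla was at 14.6, 46.8 and 10.5 TPM in Saline hearts and at 4.99, 10.1 and 16.3 TPM in CDDP hearts, which overlapped, with a log2 fold change of -0.97 (standard error 0.50, adjusted p = 0.203 by limma). With the mean of the fat genes as a covariate it was -1.37 and passed (adjusted p = 0.0324), whereas it was -0.35 without Saline heart 2 (adjusted p = 0.58) and -0.56 without CDDP heart 1 (adjusted p = 0.497). Among 10 tested genes of the response to IL-4 and IL-13, the lectin genes Mgl2 (-2.95, adjusted p = 0.00103) and Clec10a (-1.75, adjusted p = 0.00277) fell and the receptor gene Il4ra rose (1.25, adjusted p = 0.0114). The median of these 10 genes was 0.22, and Stat6 itself was at 23.8, 28.9 and 21.1 TPM in the Saline and 22.8, 24.5 and 29.2 TPM in CDDP hearts.

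In STING-/- mice, all 10 genes had lower means with cisplatin, and 2 passed the test, Mrc1 and Retnla. Of all tested genes, 0.934% passed between the STING-/-+CDDP and STING-/- groups and 0.680% were lower. For 9 genes, all but Lyve1, each STING-/-+CDDP heart was below each STING-/- heart, against 24.2% of all genes in either direction and 16.9% towards lower levels. The same 9 had an unadjusted p under 0.05 by limma, against 13.5% of all genes in either direction and 9.79% towards lower levels. The median log2 fold change of the 10 genes was -1.28, and that of all tested genes was -0.11. Scaling by the median of ratios moved the latter to 0.01 and the former to -1.16, and the 10 genes stayed negative under that and quantile normalization. The split of all calls depended on the scaling, with 94 of 129 genes lower in TPM, but 49.0% of 251 with the median of ratios and 44.1% of 297 with quantile normalization.

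Mrc1 was at 19.7, 19.3 and 13.8 TPM in the STING-/- hearts and at 7.07, 6.80 and 3.37 TPM in STING-/-+CDDP hearts (log2 fold change -1.50 with standard error 0.26, adjusted p = 0.0248 by limma). Retnla was at 60.8, 34.5 and 54.7 TPM against 4.82, 8.95 and 5.81 TPM, a mean of 13.1% of that without cisplatin. Its log2 fold change of -2.76 (standard error 0.50, adjusted p = 0.0286 by limma) was exceeded by 0.0651% of all tested genes. Both calls were lost when STING-/- heart 1 or 2, or any of the STING-/-+CDDP hearts, was left out, and with the fat genes as a covariate, and without STING-/- heart 3 that of Retnla was lost too (with the covariate, adjusted p = 0.0582 for Mrc1 and 0.0545 for Retnla). The fold changes moved less than the calls, from -1.66 to -1.21 for Mrc1 and from -3.00 to -2.59 for Retnla with any heart left out.

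The other 8 genes did not pass in this comparison. Folr2 was at 52.3, 42.5 and 35.7 TPM in the STING-/- and at 15.0, 17.3 and 8.58 TPM in STING-/-+CDDP hearts (log2 fold change -1.64, adjusted p = 0.0956 by limma). Csf1r was at 35.2, 30.9 and 26.5 TPM in the STING-/- hearts, with a log2 fold change of -1.45 (adjusted p = 0.109). C1qc was at 138, 126 and 96.8 TPM against 62.8, 77.4 and 42.7 TPM (log2 fold change -0.99, adjusted p = 0.121). STING-/-+CDDP heart 3 was the lowest of its group for 9 of the 10 genes, the exception being Retnla. C1qb (-0.91), C1qa (-0.95), Cd163 (-1.26) and Adgre1 (-1.31) had adjusted p-values from 0.114 to 0.246. Lyve1, at 66.3, 61.8 and 57.3 TPM against 68.6, 53.7 and 19.2 TPM, was the one gene whose groups overlapped.

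**Figure D4:**
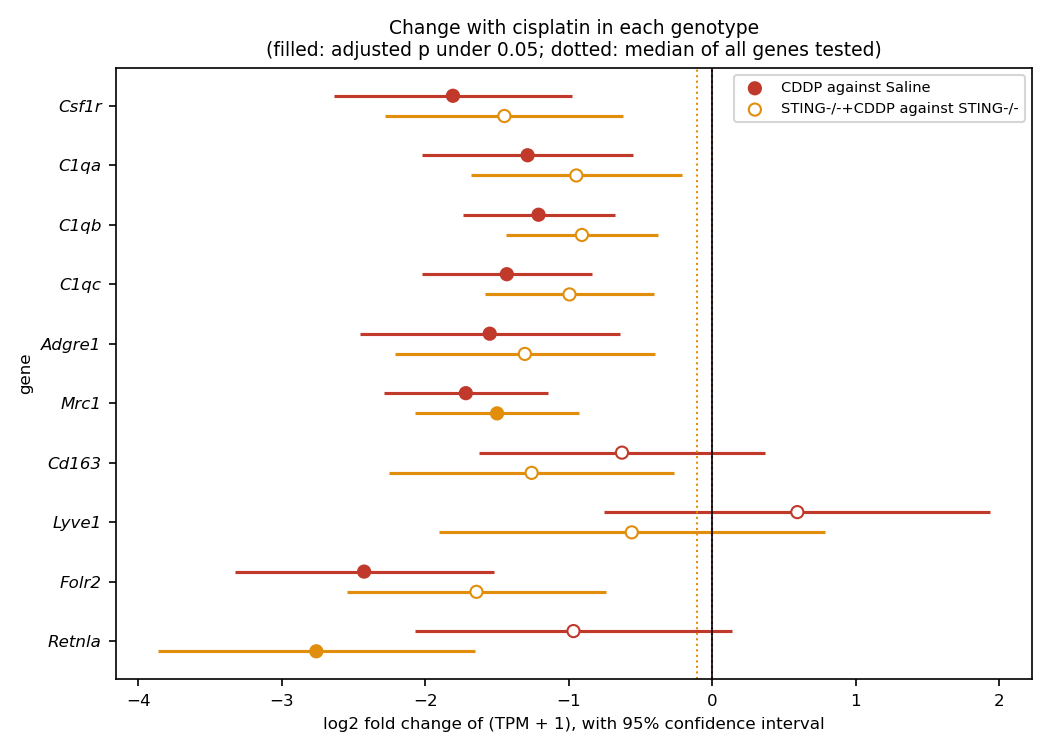
Log2 fold change of TPM + 1 with cisplatin (x axis) for the 10 resident macrophage genes (y axis) in wild-type and in STING-/- mice, with 95% confidence intervals as lines, filled points for an adjusted p under 0.05 and dotted lines for the median of all tested genes. Only the intervals of Cd163, Lyve1 and Retnla in wild-type mice and of Lyve1 in STING-/- mice include 0.

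Between genotypes none of the 10 genes passed. In the comparison of the STING-/- with the Saline group 0.0724% of all genes passed, and the only gene of the 10 with an unadjusted p under 0.05 by limma was Retnla (log2 fold change 1.28 with standard error 0.50, unadjusted p = 0.0266, adjusted p = 1), against 3.69% of all genes. Its STING-/- hearts, from 34.5 to 60.8 TPM, overlapped the Saline hearts through Saline heart 2 at 46.8 TPM. None of the 10 genes separated these groups, against 7.64% of all genes. The remaining fold changes ran from -0.18 for Folr2 to 1.00 for Lyve1. With any heart left out the value of Lyve1 ran from 0.25 to 1.72, and with the fat genes as a covariate it was -0.17. Adgre1 (19.2 ± 2.02 TPM in the Saline and 19.7 ± 2.33 TPM in the STING-/- hearts) and Mrc1 (17.6 ± 2.98 and 17.6 ± 3.32 TPM) had nearly equal means. Their 95% confidence intervals, from -0.87 to 0.94 and from -0.57 to 0.57 on the log2 scale, still allow differences in either direction. With the fat genes as a covariate 9 of the 10 genes were negative, with a median of -0.50, and the fold changes were 0.02 for Retnla, -0.50 for Adgre1 and -0.51 for Mrc1, none of which passed.

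In the presence of cisplatin, 1.22% of all genes passed between the STING-/-+CDDP and CDDP groups, and of the 10 genes none passed and none had an unadjusted p under 0.05, which 19.8% of all genes had. All 10 overlapped, against 22.7% of all genes without overlap. C1qa was at 114, 131 and 69.8 TPM in STING-/-+CDDP hearts, and C1qb at 95.7, 114 and 67.1 TPM, ranges that took in most of the CDDP hearts. The log2 fold changes lay between -0.51 for Retnla and 0.61 for Folr2, with a median of 0.30. The median was 0.011 without CDDP heart 1 and 0.013 without STING-/-+CDDP heart 2, with 5 of the 10 genes negative in each case, and 0.60 without STING-/-+CDDP heart 3. The median of all tested genes was -0.09. The interval of Folr2 reached from -0.30 to 1.51. Of the 168 genes that passed, 118 were lower in STING-/-+CDDP hearts, a share that changed to 57.8% of 651 with scaling by the median of ratios and 53.2% of 671 with quantile normalization.

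The test of whether the change with cisplatin differed between the genotypes, the interaction, passed for none of the 10 genes and for 0.00724% of all genes. The estimates were 0.36 for Csf1r, from 0.30 to 0.44 for the C1q chains, 0.24 for Adgre1, 0.22 for Mrc1 and 0.78 for Folr2, and -1.15 for Lyve1 and -0.63 for Cd163, each within 1.5 standard errors of 0. The median of the 10 genes was 0.27, and 0.56 without STING-/-+CDDP heart 3. It was -0.02 without CDDP heart 1 and -0.002 without STING-/-+CDDP heart 2, with 5 of the 10 genes negative in each case. Retnla had the lowest p, with an interaction of -1.79 (standard error 0.71, unadjusted p = 0.0279, adjusted p = 0.386 by limma). At 3 hearts per group the 95% confidence intervals were wide, for C1qb from -0.45 to 1.05. These comparisons share groups, so each rests partly on the same hearts: the Saline hearts serve CDDP and STING-/-, and the CDDP hearts serve the comparison of the genotypes with cisplatin.

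The 7 genes that fell also varied together among hearts of the same group. After each group mean was subtracted, the 21 pairs among Csf1r, C1qa, C1qb, C1qc, Adgre1, Mrc1 and Folr2 had a median Pearson's r of 0.915 over the 12 hearts, from 0.542 for Csf1r with Folr2 to 0.990 for C1qb with C1qc. Without the 2 farthest hearts the latter was 0.985. Folr2 followed C1qa with r = 0.975. Among the 24 pairs with Cd163, Lyve1 or Retnla the median was 0.551. Cd163 and Lyve1 went together with r = 0.843, and 0.619 without the 2 farthest hearts, while Lyve1 and Folr2 were at 0.356. In all, 27 of 45 pairs passed on these deviations and 37 of 45 on the values themselves, which also hold the difference made by cisplatin (permutation tests with 100000 resamples and Benjamini-Hochberg adjustment over 45 pairs). No such count was made for pairs of other genes, so whether these pairs stand out was not tested. All genes of a heart share its library and its TPM scaling, and subtracting the group means leaves fewer free values than hearts, so the permutation p-values of the deviations are too small.

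**Figure D5:**
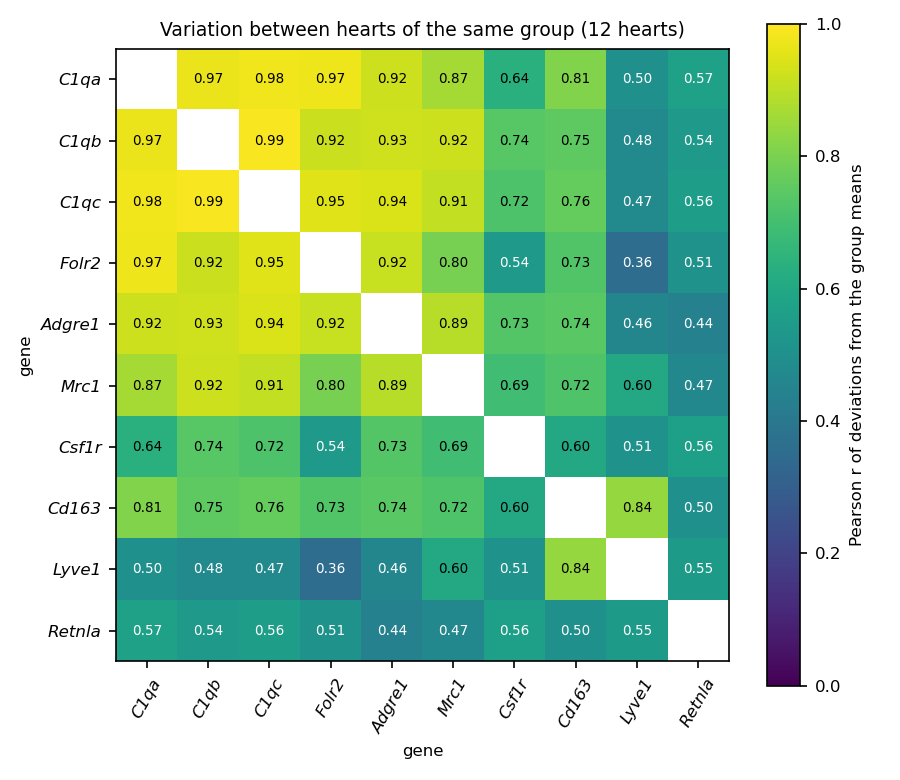
Pearson's r between the deviations of 2 genes from their group means (both axes list the 10 genes, colour and printed number give r) over 12 hearts. The block of C1qa, C1qb, C1qc, Folr2, Adgre1 and Mrc1 is at 0.795 or above, and Lyve1 and Retnla have the lowest values.

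Across the whole table, the genes most like the 10 were sought by their correlation over 12 hearts with the mean of the standardized values of the 10 genes. The closest were the transcription factor gene Maf (r = 0.978, and 0.946 over deviations from the group means), the sialoadhesin gene Siglec1 (0.977 and 0.940), Vps13b (0.976 and 0.935), the complement receptor gene C3ar1 (0.975 and 0.977) and the lectin gene Clec4a1 (0.972 and 0.901). B3galnt1, Clec4a2, Clec10a, Mpp1 and Abca2 followed with r from 0.952 to 0.956. As a description, Siglec1 was at 3.87, 6.01 and 4.28 TPM in Saline hearts, at 0.34, 2.15 and 1.18 TPM in CDDP hearts, at 8.10, 5.94 and 6.15 TPM in the STING-/- hearts and at 2.14, 2.46 and 0.92 TPM in STING-/-+CDDP hearts. Each of the 10 genes is part of the mean it is set against. By r over the 12 hearts, C1qb followed it most closely (0.972, and 0.931 over deviations) and Lyve1 least (0.373 and 0.735), while over deviations C1qa was highest (0.939) and Retnla lowest (0.668).

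Other genes of resident macrophages were taken from lists. For the counts in these lists and those above, 18.9% of all tested genes passed in CDDP against Saline and 10.4% were lower. In STING-/- mice 0.934% of all tested genes passed with cisplatin and 0.680% were lower. In a list of 20 further genes of the TIMD4+ LYVE1+ FOLR2+ subset, of which 17 were tested, 7 fell in the CDDP group and none rose, with a median of -1.12. Timd4, a receptor for phosphatidylserine on dying cells and the defining gene of the subset, was at 3.60, 4.95 and 2.77 TPM in the Saline and 0.18, 2.01 and 0.30 TPM in CDDP hearts (log2 fold change -1.49, adjusted p = 0.00789 by limma). Cbr2 was at 41.4, 67.1 and 45.8 TPM against 0.98, 12.98 and 9.18 TPM (-2.97, adjusted p = 0.0051). F13a1, the coagulation factor XIII A chain (-2.32), the growth factor gene Igf1 (-1.43), the scavenger receptor gene Stab1 (-1.98), Slc9a9 (-1.84) and the leukotriene synthase gene Ltc4s (-1.75) made up the rest. Pf4 and Selenop, which other cells also make, were at -0.16 and 0.10 without passing. The value of Pf4 rested on CDDP heart 1. Pf4 was at 142.93, 34.97 and 46.08 TPM in CDDP hearts against 62.72, 90.86 and 57.33 TPM in Saline hearts. CDDP hearts 2 and 3 were thus below every Saline heart.

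In STING-/- mice 3 of these 17 genes fell with cisplatin, Timd4 (-1.49, adjusted p = 0.0498), Ccl8 (-2.29) and Slc9a9 (-1.53), with a median of -1.09. Ltc4s was the gene of the subset that passed between the STING-/-+CDDP and CDDP groups, at 11.7, 17.1 and 7.76 TPM against 2.26, 4.80 and 2.93 TPM (log2 fold change 1.59, adjusted p = 0.0266 by limma).

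Among 20 core macrophage markers, 6 fell in the CDDP group and none rose, with a median of -0.50. The fractalkine receptor gene Cx3cr1 went from 7.01, 3.51 and 2.47 TPM to 0.09, 0.11 and 0.11 TPM (log2 fold change -2.18, adjusted p = 0.000802 by limma), and Ctsc, which encodes a lysosomal protease, from 45.8, 52.6 and 36.2 TPM to 13.5, 14.2 and 16.2 TPM (-1.54, adjusted p = 0.00112). Fcgr1, Aif1, Ms4a7 and Cybb were the other 4. Cd68, a lysosomal marker of all macrophages, was at 18.1, 19.3 and 15.8 TPM against 8.72, 13.5 and 17.3 TPM (-0.45, adjusted p = 0.374). The integrin gene Itgam, shared with neutrophils, was at 3.90, 6.85 and 4.79 TPM in the Saline and at 21.3, 9.79 and 12.6 TPM in CDDP hearts. Itgam was higher in each CDDP heart without passing (1.29, adjusted p = 0.0599). Cd14 (0.47) and Lyz2 (1.53) were also positive, but each sign rested on a single heart. For Cd14 it was CDDP heart 1, at 63.83, 10.04 and 27.79 TPM in CDDP against 15.12, 21.03 and 20.74 TPM in Saline hearts. For Lyz2 it was CDDP heart 3, at 1.06, 1.01 and 83.52 TPM against 0.95, 2.45 and 1.18 TPM. The assignment of reads between Lyz2 and its copy Lyz1 is also uncertain. In STING-/- mice 5 of the 20 fell, Cx3cr1, Fcgr1, Aif1, Ctsc and Cybb, with a median of -0.98.

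The 16 genes of recruited monocytes and macrophages had a median of 0.48 in the CDDP group. Of these, 10 were positive without passing, and Ccl12, a chemokine, fell (-2.78, adjusted p = 0.00159). Each CDDP heart lay above each Saline heart for Chil3 (3.69, adjusted p = 0.056), the chemokine gene Ccl2 (1.35, adjusted p = 0.137) and the galectin gene Lgals3 (1.11, adjusted p = 0.083). Over all tested genes these groups did not overlap for 32.0%, made up of 17.1% towards lower levels and the rest towards higher levels, so such a separation is common. The genes named here were picked out of the 16 after their values were seen. Chil3 was at 0.73, 0.70 and 0.31 TPM in the Saline and 163, 7.37 and 5.01 TPM in CDDP hearts. Ccr2, the defining receptor of recruited cells, was at 1.75, 2.33 and 0.85 TPM in the Saline and 0.88, 0.49 and 0.28 TPM in CDDP hearts, without passing (adjusted p = 0.11). The complement genes that act with C1q were listed as well. C1ra and C1s1, the proteases of the C1 complex, did not pass, at 14.5, 22.2 and 37.2 TPM and at 17.7, 26.0 and 38.4 TPM in CDDP hearts. The Saline ranges were 13.3 to 32.7 and 26.8 to 43.6 TPM, and C1s1 in CDDP heart 1 lay well below its range. Of 11 complement partners tested, C3ar1 alone passed (-1.12, adjusted p = 0.0142), against 18.9% of all tested genes, and the median was 0.07. Of 12 scavenger and efferocytosis receptors, Stab1, Scarb1, Timd4 and Clec7a fell and Hmox1, the heme-degrading enzyme, rose (1.78, adjusted p = 0.00849).

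Markers of other cells that moved in the CDDP group are given beside these falls, and their part in them was not tested. MHC class II genes, which macrophages share with dendritic and B cells, fell for 6 of 6 genes tested, with Cd74 the most abundant at 303, 244 and 140 TPM against 24.6, 43.1 and 33.0 TPM. In STING-/- mice 5 of the 6 fell. The sums of the 7 MHC class II genes listed were 696, 535 and 280 TPM in the Saline, 46.9, 82.4 and 69.9 TPM in the CDDP, 854, 511 and 564 TPM in the STING-/- and 85.5, 139 and 90.8 TPM in STING-/-+CDDP hearts. Hearts with and without cisplatin did not overlap in these sums. Fibroblast genes fell for 4 of 7 (Col1a1, Col1a2, Col3a1 and Lum), but their sum, led by Dcn, was 960, 1992 and 827 TPM in the Saline and 987, 1174 and 2100 TPM in CDDP hearts. Endothelial genes fell for 4 of 8 (Cdh5, Kdr, Tie1 and Fabp4), with sums led by Fabp4 of 1995, 1415 and 2389 TPM against 1046, 1057 and 897 TPM. Dendritic cell genes were low, with 3 of 9 tested and sums of 12.1, 8.07 and 9.07 TPM in the Saline against 4.85, 5.6 and 6.07 TPM in CDDP hearts. The 11 genes of B and T lymphocytes and NK cells summed to 13.7, 5.33 and 7.18 TPM against 0.82, 1.79 and 2.54 TPM, led by Trac, and in the STING-/- hearts to 5.71, 7.40 and 5.48 TPM against 1.63, 1.53 and 1.51 TPM with cisplatin. The 5 genes of proliferating cells, led by Cdk1, summed to 20.1, 5.94 and 8.43 TPM in the Saline and 2.05, 1.5 and 1.71 TPM in CDDP hearts. The CDDP and Saline groups did not overlap in these 3 sums, most of whose genes were too low to be tested. Of those tested, Nkg7, Cdk1 and Birc5 fell in the CDDP group. The 6 tested of 11 neutrophil genes were positive in the CDDP group and none passed. For Csf3r the sign rested on CDDP heart 1, at 1.09, 0.80 and 0.48 TPM in the Saline and 6.55, 0.63 and 0.43 TPM in CDDP hearts. The correlation of C1qa with the neutrophil genes over 12 hearts, r = -0.723 (permutation p = 0.0156, adjusted p = 0.147) and rho = -0.517 (permutation p = 0.0883, adjusted p = 0.307), fell to -0.308 without the 2 farthest hearts.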

How the data were processed

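Total RNA of 12 hearts, 3 per group, was sequenced, and each heart was assigned to its group by the labelled genotype and treatment. The table deposited by the authors holds TPM, the only unit used, rounded to 2 decimals. The submitters' processing notes name fastp, HISAT and RSEM, without versions, and the build GRCm38.p5. Columns summed to between 999999 and 1000001. Group means, in 4 further columns, were left out. Depth is unknown, so no counting intervals are given, and the number of hearts limits the precision.

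The analysis scale was log2(TPM + 1), restricted to genes reaching a TPM of 1 in 3 hearts or more. A linear model with 1 coefficient for each of the 4 groups was fitted to all 12 hearts with limma 3.58.1 in R 4.3.3 (eBayes with a trend, 8 residual degrees of freedom), with 5 two-sided contrasts, Benjamini-Hochberg adjustment over the 13815 genes and a threshold of 0.05 as in the methods. Fold changes and their intervals are on this scale. The procedure was tested on simulated data. With 3 hearts against 3, the exact permutation test has 0.10 as its smallest two-sided p. Correlations were computed with scipy 1.17.1 in Python 3.11.15, and figures with matplotlib 3.10.9. Positions came from GENCODE M21 and promoters from the RefSeq table.

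The 10 genes and the 20 lists of other genes were chosen with earlier results of these data known. The genes named are the 10, those of the lists that passed in a contrast or define the list, and the 10 most like the mean of the 10. Spi1, Pf4, Selenop, Prox1, Dcn, Itgam, Cd14, Ccl2, Lgals3, Vsig4, Cd209f, Chil3 and Lyz1 were named after their values were seen. The result of 1 list, that of the CSF1 axis, is not reported here in full. Alternatives were quantile normalization, scaling by the median of ratios, TPM recomputed without mitochondrially encoded genes, a pseudocount of 0.1, a stricter filter (TPM of 5) and none, arrayWeights, eBayes with no trend, a block for the replicate number, a fit to only the groups compared, and leaving out each heart. Covariates for fat, mesothelial and atrial genes were added after the values had been seen.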

Additional observations from a re-analysis of the deposited data

How the results depend on the processing

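The number of resident macrophage genes that passed between the CDDP and Saline groups was 5 to 7 with any heart left out and 5 to 8 under the other alternatives, and the genes lost were C1qa and Adgre1, together without a filter, with only the groups compared and without any Saline heart, and Adgre1 alone without CDDP heart 1. The fat covariate added Retnla. The 2 calls in STING-/- mice were less stable: 0 to 4 genes passed with any heart left out, 4 of them without CDDP heart 1 (Folr2 and C1qc added), 0 without a filter, 0 with the fat covariate and 5 with arrayWeights, where Folr2, C1qc and C1qb were added. The cause was not tested. In STING-/- against Saline, STING-/-+CDDP against CDDP and the interaction, 0 of the 10 genes passed under every alternative run. No call changed sign, and of the values of single genes under an alternative 1205 kept their side of the threshold, 26 lost it and 9 gained it. Over all genes, the CDDP against Saline count ran from 822 (only the groups compared) to 3904 (quantile normalization), from 2610; STING-/-+CDDP against STING-/- from 18 to 613, from 129; and STING-/-+CDDP against CDDP from 11 to 671, from 168. Of 45 pairs of genes, 36 correlated with scaling by the median of ratios and 27 on deviations from the group means, from 37.

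Hearts that share a replicate number are different animals, and the numbers did not pair them: the deviations of same-numbered hearts correlated from -0.333 to 0.261, above 0.1 in 4 of 18 pairs. With the replicate block 7 genes passed in CDDP against Saline and 3 in STING-/-+CDDP against STING-/-, Csf1r being added, and 0 in the other comparisons. TPM without counts and 3 hearts per group limit what can be resolved.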

Other observations

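Lyz2, a lysozyme gene of macrophages and neutrophils on the list of core markers, was listed at 0.95, 2.45 and 1.18 TPM in Saline hearts and at 1.06, 1.01 and 83.5 TPM in CDDP hearts, but at 706, 565 and 417 TPM in the STING-/- and 283, 402 and 176 TPM in the STING-/-+CDDP hearts. Its neighbour and near-identical copy Lyz1 was at 7.72, 31.4 and 20.5 TPM in the Saline and 5.79, 4.48 and 3.53 TPM in the STING-/- hearts. How reads were assigned between the copies is uncertain and was not tested. The sum of both genes was also higher in each STING-/- heart than in each Saline heart. Reads given to neither copy are missing from that sum. No such jump was seen for the 10 resident macrophage genes, none of which passed between the STING-/- and Saline groups, and Cd68 was at 18.1, 19.3 and 15.8 TPM against 19.6, 26.6 and 13.7 TPM.

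Chil3, which encodes a chitinase-like protein of myeloid cells, was at 163 TPM in CDDP heart 1 and at 24.1 TPM in STING-/- heart 2, the hearts with the highest neutrophil sums, and at 7.37 and 5.01 TPM in the other CDDP hearts. It was at 4.38, 6.81 and 2.44 TPM in the STING-/-+CDDP hearts and under 1 TPM in the Saline and the other STING-/- hearts. Vsig4, a complement receptor of resident macrophages, was at 0.91, 20.5 and 3.16 TPM in Saline hearts, an order that Lyve1 and Cd163 shared. Cd209f, a lectin gene of the resident subset, was too low to be tested. It was listed at 0 in all CDDP hearts and at 0.75, 1.88 and 0.53 TPM in Saline hearts. The STING-/- hearts had 0.90, 0.97 and 0.97 TPM, and the STING-/-+CDDP hearts 0.30, 0 and 0.05 TPM.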
